A study of Arabidopsis thaliana with 9 samples.

Results

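Calvin cycle and photorespiration genes of Arabidopsis leaves are described here as a set of 39 loci, out of 37363 genes in the deposited expression tables. The loci were chosen by function, at a time when earlier results of these data were known. They are the 4 nuclear genes of the Rubisco small subunit and Rubisco activase, enzymes of the Calvin cycle with the CP12 linker proteins, 2 carbonic anhydrases, and enzymes and transporters of photorespiration (23 and 16 loci for the 2 pathways, with the carbonic anhydrases counted in the first). All 39 were found in the tables and had a TPM (a transcript level corrected for gene length and library size) of at least 18.3, the lowest value of GLDP2, in each library.

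RNA was sequenced from rosette leaves of 4-week-old wild-type plants of ecotype Columbia, with 3 libraries per treatment and a pool of 3 plants behind each library. In biological low R:FR, plants grew for 3 weeks at a red to far-red ratio of about 1.4 by the labels (the study's text gives a somewhat higher ratio) and then for 1 week beside a surrogate weed, a dense grass whose reflected far-red light lowered the ratio to about 0.3. In artificial low R:FR, the last week was spent at about 0.3 under far-red LEDs with no grass, and weed-free plants stayed at about 1.4 for all 4 weeks. Both low R:FR treatments are thus set against weed-free and against each other. The study kept the grass and the LEDs in separate growth chambers, and describes an opaque divider in the chambers between weed-free and biological plants. The outer pots held growing grass in the biological treatment but a filling without plants in the other treatments. Between the low R:FR treatments, light source, chamber and pot filling thus cannot be told apart. Against weed-free, light cannot be told apart from pot filling in the biological treatment. In the artificial treatment it cannot be told apart from a possible difference of chamber. The study describes its RNA libraries as coming from 3 independent experiments, but the labels do not say that a replicate number marks one, so tests are given without a replicate block and, where a call differs, with it. In whole leaves, fewer cells of a type and less RNA per cell cannot be told apart either.

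In the Calvin cycle, Rubisco attaches CO2 to ribulose bisphosphate, the reduction phase turns the product into triose phosphate, and the regeneration phase rebuilds the acceptor. Rubisco also accepts oxygen, and photorespiration then salvages the resulting phosphoglycolate through enzymes of the plastid, the peroxisome and the mitochondrion, with the release of ammonia and CO2. Most genes of both pathways are nuclear, strongly expressed in green leaf cells and known to respond to light and to the circadian clock.

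The 4 small subunit genes are closely related copies, and their first 60 coding bases (minus strand of TAIR10.1, with capitals where a base differs from RBCS1A) show where the copies differ. RBCS1A lies on chromosome 1 at chr1:25049190-25049249, and the other 3 are neighbours on chromosome 5 at chr5:15385096-15385155, chr5:15381919-15381978 and chr5:15378247-15378306.
RBCS1A: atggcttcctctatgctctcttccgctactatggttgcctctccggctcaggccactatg
RBCS1B: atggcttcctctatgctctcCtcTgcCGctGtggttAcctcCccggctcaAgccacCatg
RBCS2B: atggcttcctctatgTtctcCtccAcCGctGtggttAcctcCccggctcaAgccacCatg
RBCS3B: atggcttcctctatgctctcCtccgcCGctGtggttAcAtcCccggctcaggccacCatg
RBCS1B, RBCS2B and RBCS3B differed from RBCS1A at 9, 10 and 8 of these bases. Over the whole coding sequence, RBCS1B and RBCS2B were 97.3% identical, both were 94.1 to 94.3% identical to RBCS3B, and RBCS1A was 87.7 to 90.1% identical to the others, so levels of the single genes on chromosome 5 in particular depend on how their reads were divided.

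Promoters were searched on both strands, over the 250 bases before each annotated start, for a G-box (CACGTG, the core that basic leucine zipper and PIF factors bind), an I-box (GATAAG, found in many light-regulated promoters) and AATATCT, the core of the evening element. RBCS2B, the small subunit gene with the most matches, and GGT1, the member that stood apart from the rest, are printed with these matches in capitals (minus strand, chr5:15382072-15382321 and chr1:8272022-8272271).
RBCS2B: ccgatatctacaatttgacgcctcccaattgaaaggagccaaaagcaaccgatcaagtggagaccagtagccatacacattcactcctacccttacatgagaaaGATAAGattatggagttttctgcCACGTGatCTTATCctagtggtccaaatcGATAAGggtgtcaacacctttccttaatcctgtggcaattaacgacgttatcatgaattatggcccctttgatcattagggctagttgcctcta
GGT1: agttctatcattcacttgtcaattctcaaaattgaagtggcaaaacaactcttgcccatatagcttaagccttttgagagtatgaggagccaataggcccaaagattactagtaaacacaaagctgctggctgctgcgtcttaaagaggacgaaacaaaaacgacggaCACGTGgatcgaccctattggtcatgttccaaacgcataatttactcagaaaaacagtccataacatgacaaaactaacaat
The RBCS2B window held a G-box 123 bases before the start and I-boxes at 146, 115 and 94 bases, and the GGT1 window held a G-box at 82 bases. A G-box was found before 5 of the 39 members (12.8%, against 6.49% of 27443 protein-coding genes), namely RBCS2B, FBPase, PRK, GGT1 and GLDP1. An I-box was found before 5 members (12.8%, against 12.3%) and the evening core before 3 (7.69%, against 10%). These are matches of letters, not tested sites. The window of RBCS1A held none of the 3 motifs. The windows end at the annotated gene start, and its distance from the coding start differs between genes. For RBCS1A these positions are 25049667 and 25049249 on chromosome 1, and for RBCS2B 15382071 and 15381978 on chromosome 5. Bases between them were not searched, so the matches depend on where the annotation starts.

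Recovered reads per library numbered 1683076 to 5025090, and the least covered member, GLDP2, had a mean depth per base of 78.7 to 442 in the 9 libraries. Leaf mesophyll markers were at 51977 to 88898 TPM in sum (5 genes), whereas the floral gene AP1 and the root hair gene COBL9 were listed at 0 in each library. In each treatment the library with replicate number 3 stood apart from numbers 1 and 2, with a chi-square of gene counts per degree of freedom of 9.41 to 13.1 from the others, against 2.29 to 6.04 between numbers 1 and 2. The shares of TPM taken by the 39 members were 4.52, 5.2 and 5.78% in the biological treatment, 12, 12.5 and 9.69% in the artificial treatment and 8.25, 8.43 and 7.41% in weed-free, and the 3 ranges did not overlap.

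Many members of both pathways fell in the biological treatment against weed-free, and most stood higher in the artificial treatment than in weed-free. With limma on log2(TPM + 1) across 17784 genes, and a threshold of 0.05 for the Benjamini-Hochberg adjusted p, 20 of 39 members fell in the biological treatment and 0 rose (among all genes tested, 9.57% were called, 3.37% lower and 6.2% higher). The median log2 difference of the members was -0.56, against 0.11 over all genes. For 34 members each biological library lay below each weed-free library, a pattern found in 10.7% of all genes, and 0 members had the opposite pattern (19% of all genes). In the artificial treatment 3 of 39 members rose and 0 fell (2.53% of all genes were called higher and 1.24% lower), and 18 members were higher at an unadjusted p under 0.05 (10.4% of all genes). The median member difference was 0.30, against -0.04 over all genes, and 27 members had all artificial libraries above all weed-free libraries (13.6% of all genes). With replicate numbers as a block in the limma fit, 25 members fell in the biological treatment (5.07% of all genes) and 6 rose in the artificial treatment (4.61%).

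Between the treatments the difference was wider. Relative to the artificial treatment, 34 of 39 members were lower in the biological treatment and 0 higher (13.6% and 23.8% of all genes), with a median difference of -0.83 against 0.15 over all genes. In 35 members each biological library was below each artificial library (17.9% of all genes). For 24 members each biological library lay below and each artificial library above each weed-free library, which holds for 3.8% of all genes. Past the threshold in both comparisons with weed-free, down in one and up in the other, were 0 of 39 members and 0.197% of all genes without the replicate block. With it they were 4 members (FBA1, FBA2, RBCS2B and RCA) and 0.568% of all genes, and 36 members were lower in the biological than in the artificial treatment (15.5% of all genes). Because both comparisons use the same weed-free libraries, their values are given side by side and not correlated.

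**Figure D1:**
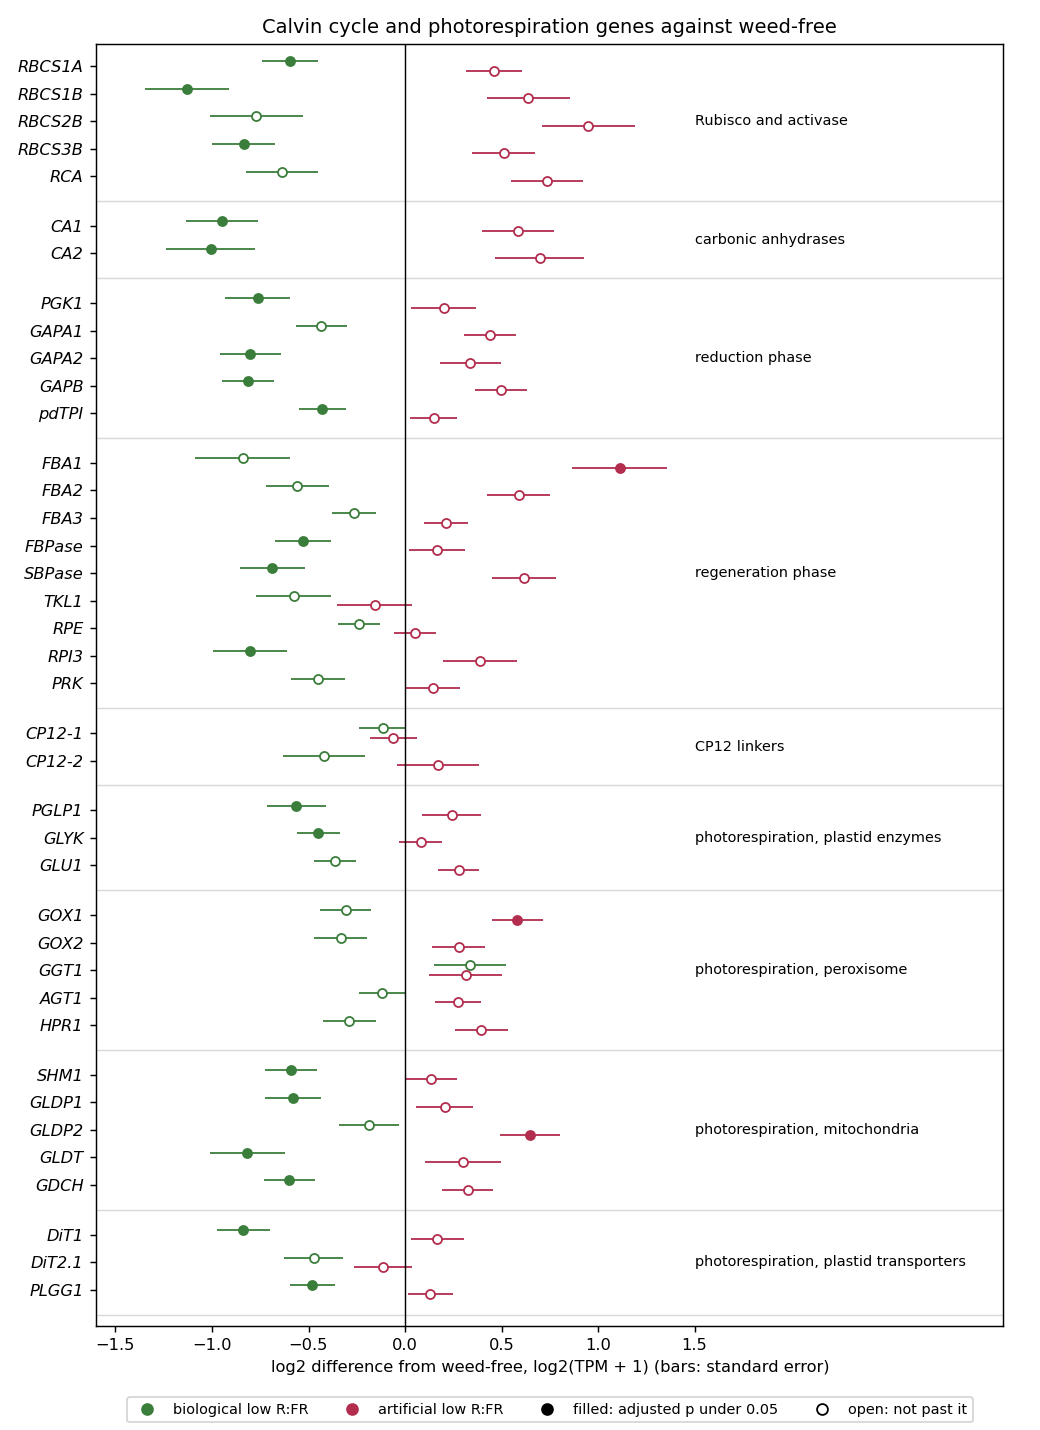
Log2 difference from weed-free of each of the 39 members (x axis, on the log2(TPM + 1) scale, bars show the standard error) in the biological and artificial treatments, grouped by role. Filled points passed the adjusted threshold of 0.05, which 20 members did in the biological and 3 in the artificial treatment.

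Rubisco small subunit genes made up most of the members' transcripts. Their summed level was 30172, 34729.8 and 40186 TPM in the biological treatment, 86511, 92066 and 69352 TPM in the artificial treatment and 58142, 60527 and 51255 TPM in weed-free. All biological libraries were below all weed-free libraries, and all artificial libraries above them. RBCS1A (AT1G67090), the most abundant of the 4, had 19121, 21132 and 24974 TPM in the biological treatment, 46419, 48943 and 39967 TPM in the artificial treatment and 33212, 34833 and 30109.9 TPM in weed-free, with no overlap between the groups. It fell in the biological treatment against weed-free (log2 difference -0.60 ± 0.15 SE, limma adjusted p = 0.0297), reaching 66.5% of the weed-free mean, and the artificial difference of 0.46 ± 0.15 did not pass (adjusted p = 0.101). RBCS3B (AT5G38410), next in level, had 7238, 8949 and 10061 TPM in biological, 23178, 24649 and 18753 TPM in artificial and 16180.4, 16577 and 13797 TPM in weed-free libraries, again 3 separate ranges. It fell in the biological treatment (log2 difference -0.84, adjusted p = 0.0144), beside 0.51 in the artificial treatment (adjusted p = 0.102).

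RBCS1B (AT5G38430) had 1134, 1319.7 and 2143 TPM in the biological treatment, 5290.1, 5875 and 4082 TPM in the artificial treatment and 3119, 3222 and 3338 TPM in weed-free. Its 3 weed-free libraries were within a narrow range, and it showed the most negative biological difference of all members, -1.13 ± 0.22 (adjusted p = 0.0144), at 47.5% of the weed-free mean. RBCS2B (AT5G38420) spread more, with 2679.7, 3329 and 3008 TPM in biological, 11624, 12599 and 6549.9 TPM in artificial and 5629.6, 5895 and 4011 TPM in weed-free libraries. The groups did not overlap, although weed-free replicate 3 and artificial replicate 3 were each well below the other libraries of their group. Neither difference of RBCS2B from weed-free passed the threshold (-0.77, adjusted p = 0.0659 in the biological and 0.95, adjusted p = 0.0554 in the artificial treatment), but with the replicate block it fell in the biological treatment and rose in the artificial treatment (limma adjusted p = 0.0334 and 0.018). Between the treatments all 4 genes differed, by -1.06 (RBCS1A), -1.77 (RBCS1B), -1.72 (RBCS2B) and -1.35 (RBCS3B), with adjusted p from 0.000382 to 0.000759.

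The balance within the family also varied. RBCS1A held 63.4, 60.8 and 62.1% of the 4-gene sum in biological libraries, 53.7, 53.2 and 57.6% in artificial libraries and 57.1, 57.5 and 58.7% in weed-free libraries. The biological shares were above all others, while artificial replicate 3 lay within the weed-free range. RBCS2B took 8.88, 9.58 and 7.48% in biological, 13.4, 13.7 and 9.44% in artificial and 9.68, 9.74 and 7.82% in weed-free libraries. No test was made of these shares, given the closely related sequences. The 2 deposited kinds of table also differed in how much they assigned to the family: the 4 genes held 3.02 to 9.21% of TPM per library but 0.0530 to 0.175% of the normalized counts, and the cause was not tested. In the counts the order of the groups was the same for RBCS1A, with 1153 to 1495 normalized counts in biological, 2733 to 3516 in artificial and 1769 to 2603 in weed-free libraries.

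**Figure D2:**
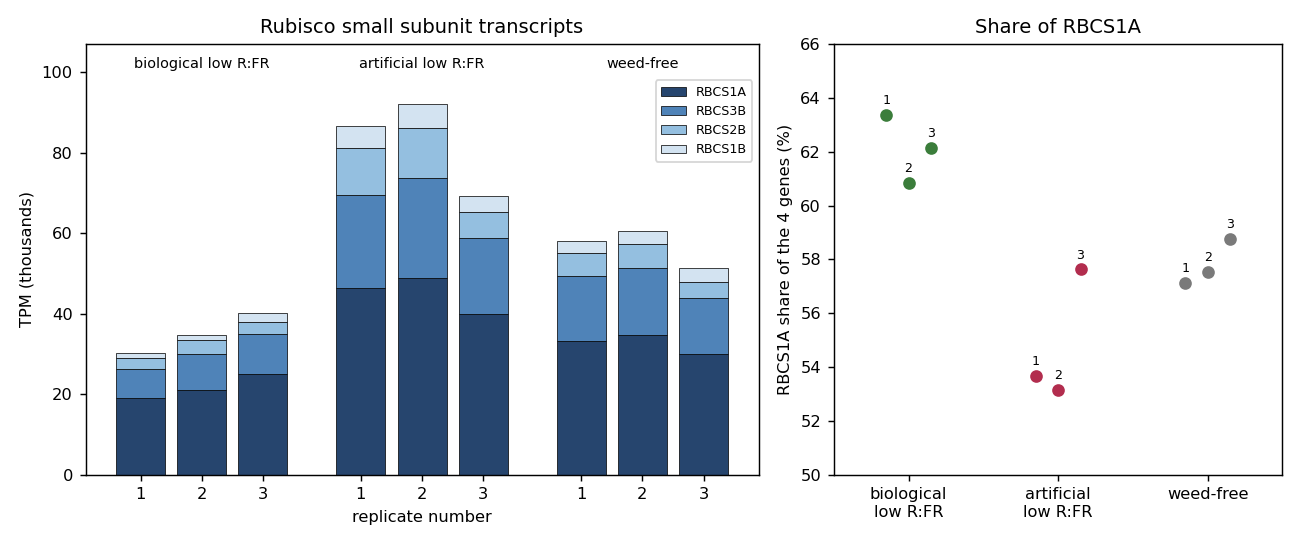
Left, TPM of the 4 Rubisco small subunit genes stacked for each library, by treatment and replicate number. Right, the percent of that sum held by RBCS1A, on an axis that starts at 50%: biological libraries lie between 60.8 and 63.4%, artificial libraries between 53.2 and 57.6%, and weed-free libraries between 57.1 and 58.7%.

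Rubisco activase, encoded by RCA (AT2G39730, chr2:16570746-16573692), frees the enzyme's active sites of inhibitory sugar phosphates. RCA had 2068, 2760.3 and 2013 TPM in the biological treatment, 6623, 6256 and 4817 TPM in the artificial treatment and 3927, 3908 and 2820.5 TPM in weed-free. The groups did not overlap, with the highest biological library just below the lowest weed-free one. Its differences from weed-free missed the threshold narrowly on both sides without the block (-0.64 ± 0.19, adjusted p = 0.0524 in the biological and 0.73 ± 0.19, adjusted p = 0.0523 in the artificial treatment), and with the replicate block RCA fell in the biological and rose in the artificial treatment (limma adjusted p = 0.0268 and 0.017). Between the treatments RCA differed by -1.37 (adjusted p = 0.000598).

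Carbonic anhydrases interconvert CO2 and bicarbonate, and CA1 (AT3G01500) and CA2 (AT5G14740) encode the abundant beta-type enzymes of the leaf. CA1 had 635, 877 and 872 TPM in the biological treatment, 2301, 2790.1 and 1841 TPM in the artificial treatment and 1520.2, 1771 and 1299 TPM in weed-free, and CA2 had 327, 204 and 265 TPM in biological, 839, 1099 and 670.0 TPM in artificial and 587, 403 and 610.2 TPM in weed-free libraries. For both genes all biological libraries were lowest and all artificial libraries highest. Both fell in the biological treatment, with log2 differences of -0.95 for CA1 (adjusted p = 0.0157) and -1.01 for CA2 (adjusted p = 0.0266), which left CA1 at 51.9% and CA2 at 49.7% of the weed-free mean. In the artificial treatment their differences were 0.59 (adjusted p = 0.105) for CA1 and 0.70 (adjusted p = 0.116) for CA2.

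Genes of the reduction phase fell in the biological treatment in 4 of 5 cases. PGK1 (AT3G12780), a phosphoglycerate kinase of the plastid, had 418, 616 and 678 TPM in the biological treatment, 1156, 1019 and 1103 TPM in the artificial treatment and 988, 955 and 908 TPM in weed-free. Biological replicate 1 was the lowest library, and artificial libraries were just above weed-free ones. PGK1 fell in the biological treatment (-0.76 ± 0.17, adjusted p = 0.0217), beside 0.20 in the artificial treatment (adjusted p = 0.551). The plastid glyceraldehyde-3-phosphate dehydrogenase is built of A subunits, encoded by GAPA1 (AT3G26650) and GAPA2 (AT1G12900), and of B subunits, encoded by GAPB (AT1G42970). GAPB had 397, 455 and 470.1 TPM in the biological treatment, 1212, 1110.5 and 969.6 TPM in the artificial treatment and 847, 785 and 698 TPM in weed-free. Its 3 ranges were far apart for their width, and its biological fall of 0.81 on the log2 scale had the second smallest adjusted p of the members (0.00826), while the artificial difference of 0.50 did not pass (0.0637).

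The A subunit gene GAPA2 had 534, 649 and 810.2 TPM in biological, 1540.4, 1461 and 1339 TPM in artificial and 1234, 1183 and 1021 TPM in weed-free libraries, and fell in the biological treatment (log2 difference -0.80, adjusted p = 0.0153). GAPA1 had 563, 656 and 729 TPM in biological, 1296, 1194 and 1074 TPM in artificial and 869, 839 and 911 TPM in weed-free libraries. Both A subunit genes kept the 3 groups apart, yet neither difference of GAPA1 from weed-free passed the threshold (-0.43, adjusted p = 0.0596 and 0.44, adjusted p = 0.0864). The plastid triose phosphate isomerase gene pdTPI (AT2G21170) ranged from 221 to 244 TPM in biological, 327 to 376 TPM in artificial and 277 to 339 TPM in weed-free libraries and fell in the biological treatment (log2 difference -0.43, adjusted p = 0.0492). Between the treatments all 5 genes were lower in the biological treatment, with differences of -0.58 for pdTPI to -1.31 for GAPB, which had the smallest adjusted p of all members (0.000199).

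In the regeneration phase 3 of 9 genes fell in the biological treatment and 1 rose in the artificial treatment. That gene was FBA1 (AT2G21330, chr2:9128122-9130619), 1 of 3 plastid aldolases, which condense triose phosphates into fructose and sedoheptulose bisphosphates. FBA1 had 307, 344 and 253 TPM in the biological treatment, 1456, 1445 and 743 TPM in the artificial treatment and 588, 573 and 458 TPM in weed-free. Artificial replicates 1 and 2 stood at nearly the same level, and replicate 3 was between them and weed-free. FBA1 rose in the artificial treatment by 1.11 ± 0.25 on the log2 scale (adjusted p = 0.037), to 225% of the weed-free mean, and its difference of -0.84 ± 0.25 in the biological treatment did not pass (adjusted p = 0.0559) but passed with the replicate block (limma adjusted p = 0.017). The direct difference of -1.95 ± 0.25 (adjusted p = 0.00056) was the most negative of the 39 members. In the table of normalized counts FBA1 had 13.7 to 18.1 in biological, 76.9 to 148 in artificial and 36.5 to 68.8 in weed-free libraries, also without overlap.

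FBA2 (AT4G38970), the most abundant aldolase and the highest of the regeneration genes, had 958, 960.0 and 889.8 TPM in biological, 2520.4, 2199 and 1604 TPM in artificial and 1485, 1439 and 1223 TPM in weed-free libraries. The biological libraries were close together and below weed-free, but the difference missed the threshold (-0.56, adjusted p = 0.0542), as did that of the artificial treatment (0.59, adjusted p = 0.0708). With the replicate block FBA2 fell in the biological and rose in the artificial treatment (limma adjusted p = 0.0337 and 0.0335). FBA3 (AT2G01140), at 45.2 to 56 TPM in biological, 66.3 to 74 TPM in artificial and 57.9 to 62.6 TPM in weed-free libraries, had the smallest differences of the 3 aldolases in all comparisons.

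The bisphosphatases commit the cycle to regeneration. SBPase (AT3G55800) had 164, 213 and 218 TPM in the biological treatment, 569, 516 and 393 TPM in the artificial treatment and 337, 339 and 279.7 TPM in weed-free. All 3 groups were separate, and SBPase fell in the biological treatment (-0.69 ± 0.17, adjusted p = 0.0292) beside 0.62 ± 0.17 in the artificial treatment (adjusted p = 0.064). FBPase (AT3G54050), at 363 to 503 TPM in biological, 650.3 to 802 TPM in artificial and 595 to 651 TPM in weed-free libraries, fell by 0.53 in the biological treatment (adjusted p = 0.0433), a call lost with the replicate block (limma adjusted p = 0.0568). RPI3 (AT3G04790), a ribose-5-phosphate isomerase, had 179, 225 and 337 TPM in biological, 584, 557 and 501 TPM in artificial and 408, 401 and 444 TPM in weed-free libraries. It fell in the biological treatment (-0.80, adjusted p = 0.0282). Exons of FBPase and RPI3 overlap exons of a gene on the other strand by 156 and 235 bases, and reads of such pairs cannot be told apart without strand.

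PRK (AT1G32060), which makes the acceptor of CO2, ranged from 392 to 541 TPM in biological, 662 to 773 TPM in artificial and 642 to 655 TPM in weed-free libraries. Its differences from weed-free did not pass the threshold (-0.45, adjusted p = 0.0606 and 0.15, adjusted p = 0.609), while the direct difference did (-0.60, adjusted p = 0.00719). TKL1 (AT3G60750), a transketolase, and RPE (AT5G61410), an epimerase of pentose phosphates, were called in no comparison without the block and are named because of that. TKL1 had 236, 303 and 412 TPM in biological, 409, 360.0 and 479 TPM in artificial and 432, 424 and 535 TPM in weed-free libraries, and was 1 of 3 members whose artificial difference was below 0 (-0.16, adjusted p = 0.699). With the replicate block TKL1 was lower in the biological treatment than in weed-free and than in the artificial treatment (limma adjusted p = 0.0334 and 0.0403). RPE ranged from 288 to 314 TPM in biological, 358 to 381 TPM in artificial and 346 to 368 TPM in weed-free libraries.

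CP12 proteins bind GAPDH and PRK into an inactive complex in the dark. CP12-1 (AT2G47400) had 2206, 2299 and 2489 TPM in the biological treatment, 2214, 2450.2 and 2609 TPM in the artificial treatment and 2515, 2394 and 2673 TPM in weed-free. All 3 ranges overlapped, and its biological difference was the smallest of the Calvin cycle members (-0.12 ± 0.12 in the biological, -0.06 ± 0.12 in the artificial treatment and -0.05 ± 0.12 between them, with adjusted p of 0.544, 0.822 and 0.743). CP12-2 (AT3G62410) was past the threshold only between the treatments (-0.59, adjusted p = 0.0474), at 1045 to 1601 TPM in biological libraries and 1684 to 1992 TPM in artificial libraries.

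**Figure D3:**
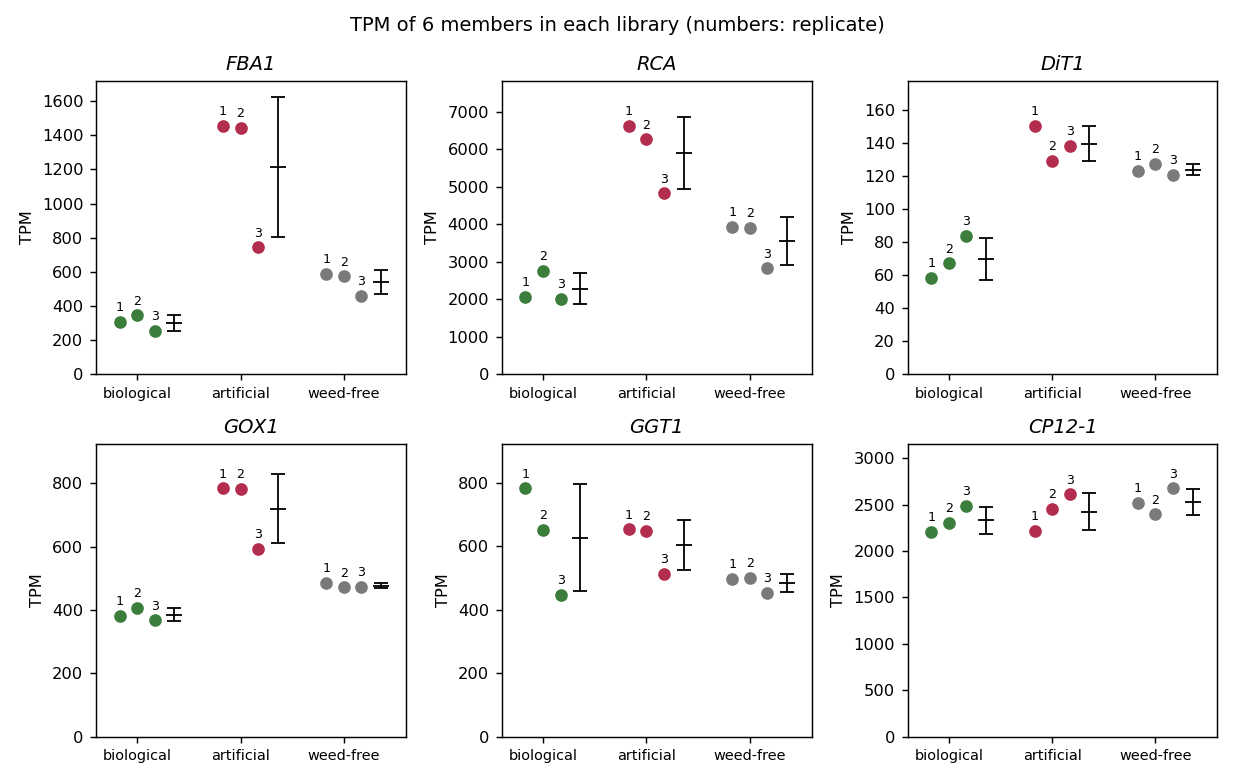
TPM of 6 members in each library, with replicate numbers above the points and the group mean with its standard deviation (n = 3) beside them. FBA1 and RCA are lowest in the biological and highest in the artificial treatment. DiT1 is lowest in the biological treatment, and GOX1 is high in the artificial treatment. In GGT1 the biological libraries overlap both other groups, and in CP12-1 all 3 groups overlap.

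Among the plastid steps of photorespiration, 2 of 3 enzymes and 2 of 3 transporters fell in the biological treatment. PGLP1 (AT5G36700), the phosphatase that opens the pathway, had 77.1, 82.1 and 92.9 TPM in the biological treatment, 161, 173 and 114 TPM in the artificial treatment and 127, 126 and 119 TPM in weed-free. Artificial replicate 3 was below the weed-free libraries and the other 2 above them. PGLP1 fell in the biological treatment (-0.56, adjusted p = 0.0443). Its coding sequence of 1089 bases is 100% identical to that of a neighbouring copy, here PGLP1B, so the levels of the copies cannot be told apart, and PGLP1 is the member not listed among the counts. GLYK (AT1G80380), the kinase that returns glycerate to the Calvin cycle, ranged from 44.7 to 51.7 TPM in biological, 66.7 to 73.7 TPM in artificial and 63.3 to 69.9 TPM in weed-free libraries and fell by 0.45 in the biological treatment (adjusted p = 0.031).

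GLU1 (AT5G04140) encodes the ferredoxin-dependent glutamate synthase that recaptures released ammonia. It had 57.7, 59 and 56.4 TPM in biological, 97.4, 92.9 and 81.9 TPM in artificial and 72.9, 74.4 and 76.2 TPM in weed-free libraries, 3 separate ranges. Only the direct difference passed the threshold (-0.64, adjusted p = 0.00153), and this call did not hold in the counts, where GLU1 had 22.2 to 37.8 normalized counts in biological, 16.6 to 35.7 in artificial and 32 to 40.5 in weed-free libraries and a difference of 0.14 between the treatments (edgeR adjusted p = 0.774). Exons of GLU1 overlap a gene on the other strand by 79 bases.

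DiT1 (AT5G12860, chr5:4059579-4062289), which exchanges 2-oxoglutarate for malate across the plastid envelope, had 58.1, 66.9 and 83.4 TPM in the biological treatment, 150.2, 129 and 138 TPM in the artificial treatment and 123, 127 and 121 TPM in weed-free. The artificial libraries lay close above the weed-free range, and the biological libraries far below it. Its biological fall of 0.84 ± 0.14 had the smallest adjusted p of the members (0.00812), and the artificial difference was 0.17 (adjusted p = 0.543). PLGG1 (AT1G32080), the glycolate and glycerate exchanger, had 60.7, 62.7 and 73.8 TPM in biological, 109, 94.2 and 99.3 TPM in artificial and 93.4, 93.7 and 88.4 TPM in weed-free libraries. PLGG1 fell in the biological treatment (-0.48, adjusted p = 0.0294). DiT2.1 (AT5G64290), the glutamate and malate exchanger, was called in no comparison without the block and was lower in the biological treatment with it (limma adjusted p = 0.0413 against weed-free and 0.0454 against the artificial treatment), with 24 to 36.2 TPM in biological, 33.4 to 41.9 TPM in artificial and 38.7 to 42.4 TPM in weed-free libraries.

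Of the 5 peroxisomal members 0 passed the threshold in the biological treatment against weed-free by limma, whereas GOX1 (AT3G14420, chr3:4821391-4824178) and GOX2 (AT3G14415) had an unadjusted p under 0.05. GOX1, a glycolate oxidase, had 382, 407 and 367 TPM in the biological treatment, 783, 783 and 594 TPM in the artificial treatment and 485, 471 and 474 TPM in weed-free. The weed-free libraries were nearly level, with the artificial libraries above and the biological libraries below them. GOX1 rose in the artificial treatment by 0.58 ± 0.13 (adjusted p = 0.037), to 151% of the weed-free mean, while the biological difference of -0.31 ± 0.13 did not pass (adjusted p = 0.151). GOX2, its neighbour on chromosome 3 with a coding sequence 90.9% identical, ranged from 211 to 265 TPM in biological, 315 to 375 TPM in artificial and 268 to 329.6 TPM in weed-free libraries, with an artificial difference of 0.28 (adjusted p = 0.288).

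AGT1 (AT2G13360), the serine:glyoxylate aminotransferase, had 713, 733 and 659 TPM in biological, 992, 941 and 836 TPM in artificial and 802, 706 and 776 TPM in weed-free libraries. Biological and weed-free libraries overlapped, and AGT1 passed the threshold only between the treatments (-0.39, adjusted p = 0.0253). HPR1 (AT1G68010), the hydroxypyruvate reductase, ranged from 129 to 149 TPM in biological, 180.1 to 249.95 TPM in artificial and 165 to 173 TPM in weed-free libraries, and differed between the treatments by -0.68 (adjusted p = 0.00371). GGT1 (AT1G23310, chr1:8268385-8272021), the glutamate:glyoxylate aminotransferase, is singled out after its values were seen. It had 782, 651 and 448 TPM in the biological treatment, 654, 648 and 514 TPM in the artificial treatment and 498, 502 and 452 TPM in weed-free. Biological replicate 1 was the highest and biological replicate 3 the lowest of the 9 libraries, and GGT1 was the 1 member with a biological difference above 0 (0.34 ± 0.19, adjusted p = 0.252). Without biological replicate 3 it passed the threshold (limma log2 difference 0.56, adjusted p = 0.0273). Each artificial library of GGT1 was above each weed-free library, with a difference of 0.31 ± 0.19 (limma adjusted p = 0.386). Its direct difference was 0.02 ± 0.19 (adjusted p = 0.932).

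In the mitochondria, 4 of 5 members fell in the biological treatment and 1 rose in the artificial treatment. Glycine decarboxylase is built of P, T, H and L proteins and passes its one-carbon unit to serine hydroxymethyltransferase. GLDT (AT1G11860), the T protein, had 287, 451 and 505 TPM in the biological treatment, 999, 859.6 and 781 TPM in the artificial treatment and 765, 733 and 639.7 TPM in weed-free. Biological replicate 1 was far below the other 2, and all 3 lay below weed-free. GLDT fell in the biological treatment by 0.82 ± 0.19 (adjusted p = 0.0275). GDCH (AT2G35370), the H protein, had 476, 546 and 649 TPM in biological, 1057, 1036 and 1055 TPM in artificial and 893, 835 and 788 TPM in weed-free libraries, in 3 separate ranges, and fell in the biological treatment (-0.60, adjusted p = 0.0227). SHM1 (AT4G37930), the serine hydroxymethyltransferase, had 313, 429 and 377 TPM in biological, 622, 570.0 and 644 TPM in artificial and 581, 561 and 529 TPM in weed-free libraries. It fell in the biological treatment (-0.59, adjusted p = 0.0254), and its artificial and weed-free libraries overlapped.

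The 2 genes of the P protein differed in which comparison they passed. GLDP1 (AT4G33010) had 72.1, 96.6 and 97.6 TPM in biological, 168, 156 and 135 TPM in artificial and 127, 124 and 147 TPM in weed-free libraries and fell in the biological treatment (-0.58 ± 0.15, adjusted p = 0.0332), with 0.21 ± 0.15 in the artificial treatment (adjusted p = 0.478). GLDP2 (AT2G26080, chr2:11109003-11114291), expressed at a lower level, had 22.2, 25.1 and 18.3 TPM in biological, 45.1, 42.3 and 32.1 TPM in artificial and 25.2, 26 and 23.3 TPM in weed-free libraries. Its biological and weed-free libraries overlapped (-0.19 ± 0.15, adjusted p = 0.437), and it rose in the artificial treatment by 0.65 ± 0.15 (adjusted p = 0.0427). Between the treatments GLDP1 and GLDP2 differed by -0.79 and -0.83 (adjusted p = 0.00248 and 0.00241). Whether the genes respond differently from each other was not tested.

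Across the 39 members the direct differences of the biological from the artificial treatment ran from -1.95 (FBA1) to 0.02 (GGT1). Those with the widest difference were FBA1, RBCS1B, RBCS2B, CA2 and CA1, in which the biological mean was 24.8, 30.2, 29.3, 30.5 and 34.4% of the artificial mean. Those past the threshold with the narrowest difference were FBA3 and AGT1 (-0.48 and -0.39). The 5 members called in no comparison without the block were TKL1, RPE, CP12-1, GGT1 and DiT2.1. Of the 23 Calvin cycle members 12 fell in the biological treatment, 1 rose in the artificial treatment and 20 were lower in the biological than in the artificial treatment, with median differences of -0.64, 0.44 and -1.14. For the 16 photorespiration members the counts were 8, 2 and 14, with median differences of -0.46, 0.28 and -0.70. The shares called in the same directions over all genes were 3.37, 2.53 and 13.6%, so single calls in the artificial treatment are near the share over all genes. Exact permutation tests of single members, two-sided and with 3 libraries against 3, reached their smallest possible p of 0.1 for 34, 27 and 35 members in the 3 comparisons. This p is reached when 2 groups do not overlap, so these counts repeat those given above. Over all genes, groups did not overlap in 10.7% (lower) and 19% (higher) for biological against weed-free. The shares were 14.4% and 13.6% for artificial against weed-free, and 17.9% and 35.2% for biological against artificial.

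**Figure D4:**
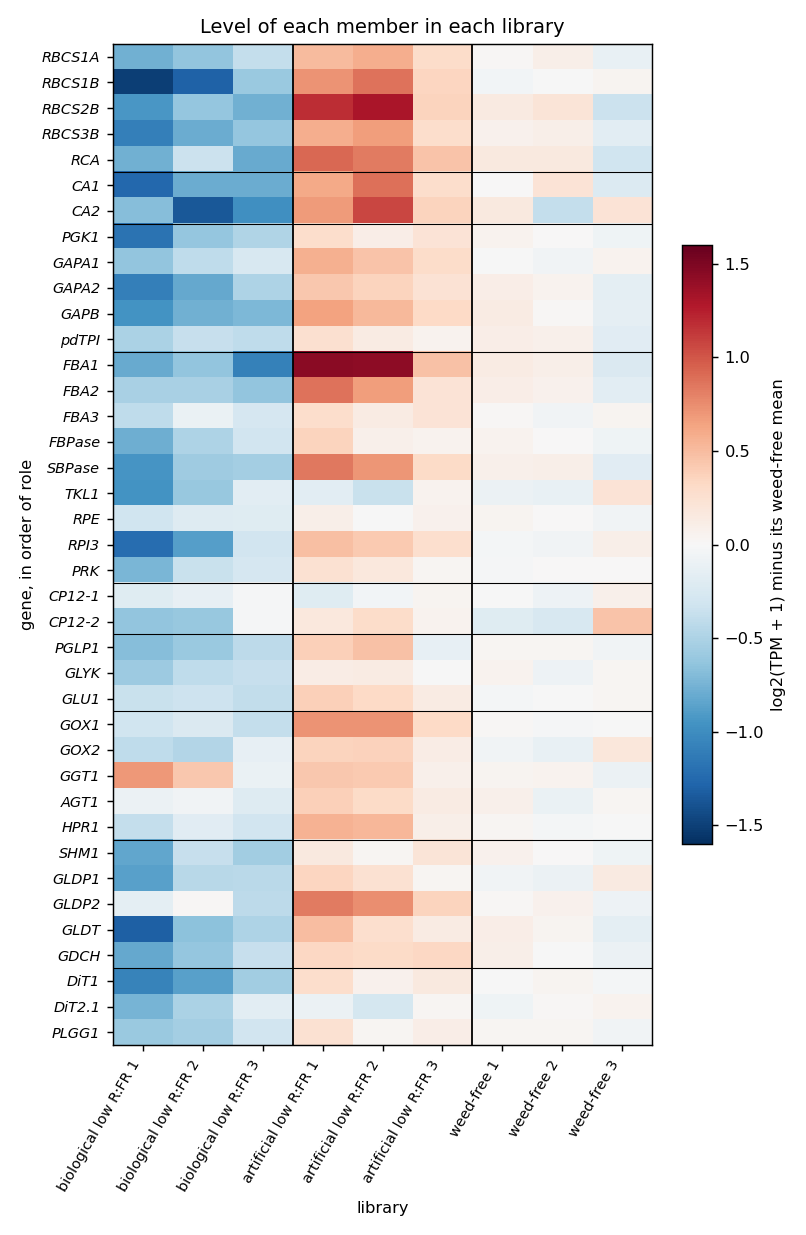
Level of each of the 39 members (rows, in order of role) in each of the 9 libraries (columns), as log2(TPM + 1) minus the weed-free mean of that gene. Biological libraries are below 0 for all members except GGT1 and, in 1 library, GLDP2, and artificial replicates 1 and 2 lie further above 0 than replicate 3 for most.

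Replicates of a group differed in how far they stood from weed-free. Biological replicate 1 was the lowest of its group for 29 of 39 members, and artificial replicate 3 was the lowest of its group for 29. Compared by replicate number, biological libraries were below weed-free in 38, 37 and 39 members and artificial libraries above weed-free in 36, 36 and 31, so the direction was shared by all numbers. Over all genes, 30.53, 39.19 and 53.19% were below weed-free in biological libraries and 49.01, 56.34 and 29.72% above weed-free in artificial libraries. The size was not, since the median member difference of biological from weed-free libraries was -0.80, -0.50 and -0.36 for numbers 1, 2 and 3, and that of artificial from weed-free was 0.39, 0.41 and 0.20. Over all genes tested, the median difference of biological from weed-free was 0.26, 0.09 and -0.02, and that of artificial from weed-free -0.01, 0.05 and -0.15, for the same numbers.

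Levels of clock genes differed among the artificial replicates, and those of some clock genes differed among the replicates of the other groups too. The pseudo-response regulator PRR5 had 0.583, 0.452 and 43.9 TPM in the artificial treatment, against 46.5, 44.7 and 54.8 TPM in weed-free, and the morning gene RVE8 had 10.5, 12.4 and 1.88 TPM in the artificial treatment, against 1.27, 1.04 and 0.684 TPM in weed-free. In the biological treatment the levels were 67.7, 59.3 and 49.5 TPM for PRR5 and 1.27, 0.962 and 0.377 TPM for RVE8. These were nearer weed-free than artificial replicates 1 and 2 were, but other clock genes stood further from weed-free. LUX had 49.6, 48.5 and 130 TPM in biological and 27.3, 27.4 and 82.7 TPM in weed-free libraries. Over the 12 clock genes the log2 differences of biological from weed-free ran from -0.11 to 0.76, with a median of 0.27. Not all clock genes were even within these groups. ELF4 had 141, 143 and 439 TPM in biological and 108, 104 and 449 TPM in weed-free libraries, with replicate 3 apart in both. TOC1 had 22.2, 24.2 and 71.6 TPM in weed-free, whereas PRR7 had 59.5, 53.5 and 57.4 TPM there. Biological libraries had 53.4, 38.1 and 81.4 TPM of TOC1 and 119, 75.9 and 62.4 TPM of PRR7. Of 12 clock genes, 0 passed the threshold in the biological and 0 in the artificial treatment against weed-free (limma, unadjusted p under 0.05 in 1 and 10 genes), and 6 were higher and 2 lower in the biological than in the artificial treatment (23.8% and 13.6% of all genes). The summed TPM of the 12 was 462 to 854 in biological, 266 to 329 in artificial and 343 to 806 in weed-free libraries. Sampling times per library are not given in the sources used here, and the part of the clock in the members' differences was not tested. Artificial replicate 3 was the artificial library nearest weed-free in PRR5 and RVE8, but other clock genes still differed. It had 8.21 TPM of CCA1 and 80.2 TPM of ELF4, against 1.27 and 449 TPM in weed-free replicate 3.

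Markers of leaf cell types differed as well. The 5 mesophyll genes summed to 78442 to 88898 TPM in biological, 51977 to 57602 TPM in artificial and 62159 to 73030 TPM in weed-free libraries, so that their order was the reverse of that of the members. Only LHCB1.3, an antenna protein gene, had this order in its own means, and it rose in the biological treatment (0.50, limma adjusted p = 0.0421). The other 4 mesophyll genes did not pass the threshold in any comparison. Their biological means were below weed-free, at 3375 against 3878 TPM (LHCB2.1), 7835 against 8117 TPM (LHCA3), 6012 against 7471 TPM (PSAD1) and 5355 against 6891 TPM (PSBP1). The 6 guard cell and epidermal genes summed to 66.5 to 87.2 TPM in biological, 56.4 to 64.2 TPM in artificial and 58.9 to 64.5 TPM in weed-free libraries, with 1 of 6 higher in the biological treatment. Vascular genes (5, of which 4 were tested) summed to 40.1 to 55.3 TPM in biological, 43.5 to 44.2 TPM in artificial and 46.7 to 50.7 TPM in weed-free libraries, with 1 called lower in the biological treatment, and 4 genes of dividing cells to 10.3 to 18.6 TPM over all libraries, with 0 of 3 tested called by limma. Between the treatments LHCB1.3 (0.98, adjusted p = 0.000656), the guard cell and epidermal genes FAMA, ATML1 and FDH (0.56, 0.67 and 0.60, adjusted p = 0.0263, 0.00674 and 0.0096) and the phloem gene SUC2 (0.66, adjusted p = 0.00582) were higher in the biological than in the artificial treatment, and the vascular gene APL was lower (-0.56, adjusted p = 0.00541). Flower markers were at most 0.755 TPM in sum, and root markers reached 10.5 TPM, nearly all from SCR. The part of cell composition in the members' differences was not tested.

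Single libraries decided how many members passed against weed-free. In the biological treatment the 20 members became 2 without biological replicate 1, 13 without biological replicate 2, 1 without weed-free replicate 1 and 3 without weed-free replicate 2, while the other 5 omissions left 15 to 25. Over all genes, the 599 called lower became 55, 302, 34 and 59 in the omissions named, in that order. All 20 kept their direction in all 9 omissions, and DiT1 was the 1 member called in each of them. In the artificial treatment the 3 members became 14 without artificial replicate 3 and 7 without biological replicate 3, 1 without biological replicate 1 and 0 without any of the other 6 libraries. Over all genes, the 450 called higher became 947, 597 and 332 in the omissions named, in that order, and 70 to 409 in the others. Added to the 3 in the absence of artificial replicate 3 were all small subunit genes but RBCS1A, together with RCA, CA1, CA2, GAPA1, GAPB, FBA2, SBPase and HPR1. Between the treatments 32 to 37 members were called in the 9 omissions, and 32 of 34 in each of them. Over all genes, 1551 to 2654 were called lower there.

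**Figure D5:**
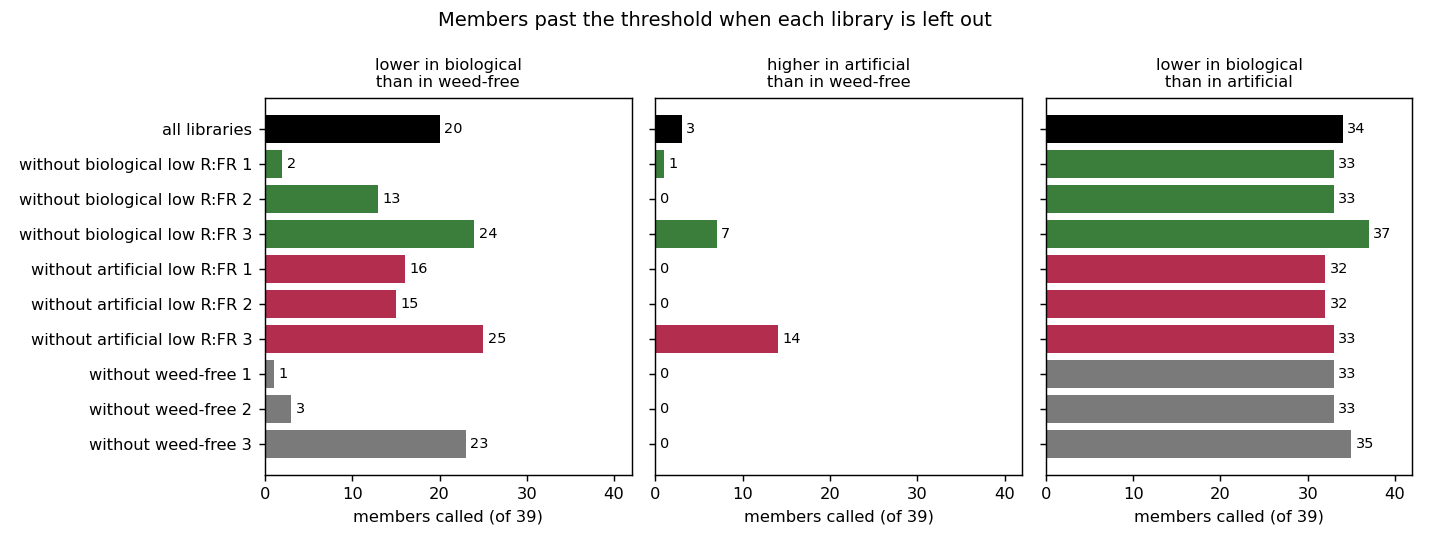
Number of the 39 members past the adjusted threshold of 0.05 (x axis) with all libraries and with each of the 9 libraries left out in turn (rows), for the 3 comparisons. Between the treatments the count stays between 32 and 37, whereas against weed-free it runs from 1 to 25 in the biological and from 0 to 14 in the artificial treatment. Over all genes (not drawn), calls against weed-free ran from 34 to 1126 lower in the biological and 70 to 947 higher in the artificial treatment.

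The scaling of the libraries moved the calls. Where each library was rescaled by its median ratio to the geometric mean over genes, 1129 genes were higher and 1360 lower in the biological treatment, against 1103 and 599 with TPM as deposited, and the median over all genes moved from 0.11 to 0.01. Between the treatments the calls became 3485 higher and 3895 lower, against 4240 and 2418. Among the members 23 fell in the biological treatment, 0 rose in the artificial treatment and 37 were lower in the biological than in the artificial treatment under this scaling, and 38, 3 and 39 of their differences were below 0. Over all genes, 654 were called higher in the artificial treatment, against 450 with TPM as deposited. On the recovered reads, in which 35 members could be tested, edgeR called 13 members lower in the biological treatment, 1 higher in the artificial treatment (FBA1) and 23 lower in the biological than in the artificial treatment, and DESeq2 called 13, 2 and 21 in these comparisons. Over the 7132 genes tested on reads, edgeR called 148, 127 and 931 in these directions, and DESeq2 165, 136 and 778.

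Related genes outside the 39 give the setting. Of 11 genes for the Rubisco large subunit, its assembly factors and the plastid chaperonins, 7 fell in the biological treatment and 0 rose (3.37% and 6.2% of all genes tested). CPN60B2, a chaperonin subunit, had 4.88, 5.46 and 7.94 TPM in biological, 25.6, 24.3 and 19.8 TPM in artificial and 16.9, 18.1 and 16.7 TPM in weed-free libraries (-1.38, adjusted p = 0.00275). The chaperonin genes CPN60A1 (-1.06, adjusted p = 0.0137), CPN60B1 (-1.08, adjusted p = 0.0206) and CPN20 (-0.87, adjusted p = 0.0223) fell as well. The chaperone gene RBCX1, named for its replicates after its values were seen, had 14.9, 14.4 and 147 TPM in the artificial treatment, against 191, 178 and 231 TPM in weed-free, with replicate 3 apart as in the clock genes. The plastid gene rbcL, at 23.6 to 57.9 TPM in the 9 libraries, was called in no comparison.

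Of 9 other Calvin cycle genes 3 fell in the biological treatment, namely PGK2 (-0.56, adjusted p = 0.0247), CBBY (-0.50, adjusted p = 0.0195) and the thioredoxin reductase NTRC (-0.65, adjusted p = 0.0147), and 0 were called in the artificial treatment. Of 14 further photorespiration genes tested, 4 fell in the biological treatment, namely PGLP1B, the H protein gene GDH3, the lipoamide dehydrogenase mtLPD1 and the plastid glutamine synthetase GLN2, by 0.53, 0.61, 0.67 and 0.66 on the log2 scale. BOU, a mitochondrial carrier, rose in the artificial treatment (0.74, adjusted p = 0.0406), and 8 of the 14 were lower and 2 higher in the biological than in the artificial treatment. Among 4 minor carbonic anhydrases, CA6 rose in the biological treatment (0.67, adjusted p = 0.0183) and CA3 fell in the artificial treatment (-0.73, adjusted p = 0.044), both at low levels (3.72 to 14.0 TPM in biological libraries). Of 7 cytosolic genes for the same reactions in glycolysis and sucrose synthesis, 3 fell in the biological treatment and 6 were lower in the biological than in the artificial treatment, PGK3 among both (-0.77, adjusted p = 0.0106 and -1.05, adjusted p = 0.000507). Over all genes tested, 3.37% were called lower in the biological treatment against weed-free. Between the treatments 13.6% were lower and 23.8% higher in the biological treatment.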

How the data were processed

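RNA-seq of 9 leaf libraries was analysed, 3 per treatment (biological and artificial low R:FR, and weed-free), grouped by the labels. For each library the authors deposited a table with TPM, FPKM and coverage per gene on TAIR10.1, made by a program not given in the sources used here. They also deposited tables of normalized counts for 16601 genes. The submitters' processing notes name Bowtie2 2.4.3, HTSeq 0.13.5 and DESeq2 1.30.1. FPKM and the authors' columns of log2 fold changes and p-values were not used. Coverage, the deposited mean depth per base, served to describe depth only.

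Genes with a TPM of at least 1 in at least 3 libraries (17784) were tested as log2(TPM + 1) with limma 3.58.1 in R 4.3.3 (trend and robust), all libraries in 1 fit and Benjamini-Hochberg adjustment over all genes tested. A log2 difference on this scale understates changes of low genes. Whole reads were recovered from the deposited normalized counts (100% of values whole within 1e-06) and tested with edgeR 4.0.16 and DESeq2 1.42.0 where 3 or more libraries had 10 or more normalized counts (7132 genes, 35 members), as alternatives. Of 37363 genes, 37145 were found in the RefSeq annotation of TAIR10.1, and all 39 members had the same start and end there. Sequences were read from that reference with Biopython 1.88, and tables were handled with pandas 2.3.3 and SciPy 1.17.1. The fits were tested on simulated data for biological against weed-free. A 2-fold change was called in 74 of 100 genes by limma, 39 by edgeR and 33 by DESeq2. For a 4-fold change these were 96, 87 and 82 of 100. Smaller changes can thus be missed, more so on reads. Of the unchanged genes limma called 5 of 17584, and edgeR and DESeq2 called 4 and 5 of 6932. The strand setting of the counting is not given in the sources used here.

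The members, the lists of related genes (Rubisco assembly, other Calvin cycle, other photorespiration, other carbonic anhydrases, cytosolic glycolysis, clock, cell type markers) and the tests were chosen with earlier results of these data known. Members given library by library were the small subunit genes, RCA, the 24 past the threshold with the smallest adjusted p, and the highest of each role. Of the related lists, up to 4 genes with the smallest adjusted p were named. GGT1, TKL1, RBCX1, PRR5, RVE8 and the other genes given beyond this were chosen after their values were seen.

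Replicate numbers are shared between the groups in the labels. Deviations from the group means of same-numbered artificial and weed-free libraries correlated at 0.218, 0.166 and 0.307, each over 0.1, so the numbers were taken to pair these libraries, and the fit with the replicate block is given beside the results it changed. The other pairs of groups did not meet this criterion, but the study describes a block design and 3 independent experiments, so blocked calls are given for these too. Alternatives were another pseudocount, other filters, another scaling, omission of organelle genes, fits of 2 groups only, the replicate block, omission of each library, and the tests on reads.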

Additional observations from a re-analysis of the deposited data

Results flagged for a closer look

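For 24 of 39 members each biological library lay below and each artificial library above each weed-free library, and the direct difference between the biological and artificial treatments, whose size does not use the weed-free libraries but whose error pools the spread of all 9, passed the limma threshold (adjusted p under 0.05). The choice of these members already separates their biological from their artificial libraries, so passing the direct test adds no independent support. The pattern against weed-free was found in 3.8% of all genes tested. Among genes of Rubisco and carbonic anhydrase the log2 differences of the biological from the artificial treatment were -1.06 (RBCS1A), -1.77 (RBCS1B), -1.72 (RBCS2B), -1.35 (RBCS3B), -1.37 (RCA), -1.53 (CA1) and -1.71 (CA2). In the reduction phase they were -0.96 (PGK1), -0.87 (GAPA1), -1.14 (GAPA2) and -1.31 (GAPB). In the regeneration phase they were -1.95 (FBA1), -1.15 (FBA2), -0.48 (FBA3), -1.30 (SBPase), -1.19 (RPI3) and -0.60 (PRK). Photorespiration genes had -0.64 (GLU1), -0.89 (GOX1), -0.68 (HPR1), -1.12 (GLDT), -0.92 (GDCH), -1.01 (DiT1) and -0.61 (PLGG1), of which GLU1 did not keep its direction on the recovered reads.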

How the results depend on the processing

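Without a filter on low values, 536 genes were called higher and 253 lower in the biological treatment and 184 and 74 in the artificial treatment, each against weed-free, and 10 members were lower in the biological and 0 higher in the artificial treatment. Median-ratio scaling gave 1360 lower in the biological treatment and 3895 lower between the treatments. In the artificial treatment it gave 654 higher and 363 lower, against 450 and 221 with TPM as deposited, but 0 members higher, against 3. On recovered reads edgeR called 163 higher and 148 lower (biological), 127 and 138 (artificial) and 996 and 931 (between them), with 13 members lower in the biological and 1 higher in the artificial treatment. DESeq2 called 166 higher and 165 lower (biological), 136 and 172 (artificial), and 879 and 778 (between them), with 13 members lower in the biological treatment and 21 lower between the treatments. These tests covered 7132 genes.

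With the replicate block, 901 genes were lower in the biological treatment, and 819 were higher and 649 lower in the artificial treatment, with 6 members higher in the artificial treatment. The block gave 25 members lower in the biological treatment and 36 lower between the treatments. Same-numbered libraries of those 2 comparisons correlated at 0.00311 to 0.270 and -0.0298 to 0.174, and not each library correlated best with its own number.

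With each library left out in turn, genes called higher and lower numbered 157 to 2442 and 34 to 1126 in the biological, 70 to 947 and 23 to 1034 in the artificial treatment, and 2164 to 4938 and 1551 to 2654 between them. Members called lower in the biological treatment numbered 1 to 25 and higher 0 to 1, members higher in the artificial treatment 0 to 14, and members lower between the treatments 32 to 37. The small subunit sum ranged over 32451 to 37458 TPM in biological, 77931 to 89288 in artificial and 54698 to 59334 in weed-free libraries, and the RBCS1A share over 61.5 to 62.8% in biological, 53.4 to 55.6% in artificial and 57.3 to 58.1% in weed-free libraries.

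Directions turned in 8 of 39 members, in 11 comparisons of which 1 was past the threshold. Besides 4 given here, these were RPE, PRK, GGT1 and DiT2.1. On reads, GLU1 was at -0.45 (edgeR) and -0.44 (DESeq2) in the artificial treatment and at 0.14 by both between the treatments, GLDP1 at -0.27 by both in the artificial treatment, and DiT1 at -0.0069 (DESeq2) there. CP12-1 in the artificial treatment was at -0.116 to 0.0020 with 1 library left out, above 0 without artificial replicate 1 only. The cause was not tested. Of the members called, 20, 3 and 33 of 34 kept their sign in all settings other than omissions, GLU1 being the exception. Depth limits the low genes most on the reads, where 35 of 39 members could be tested.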
